A study of Mus musculus with 9 samples.

Results

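Gene expression after repeated fasting and refeeding was compared with free feeding in 3 brain regions, using the 3 RFR arrays and the 3 AD arrays of a set of 9. The arrays were chosen by diet label and paired by region (amygdala, hypothalamus and prefrontal cortex). All mice were male wild-type C57BL/6J, 8 to 9 weeks old, and were killed at 14:00 on day 8. AD mice had free access to chow (ad libitum). RFR mice (repeated fasting and refeeding) were fasted from day 0 and then fed freely and fasted on alternate days. The remaining 3 arrays are from CR mice (caloric restriction), which received a fixed part of the food eaten by the RFR mice, and their values are given beside those of RFR where they help. The labels do not state whether day 8 at 14:00 fell in a fasting or a feeding period, so every RFR value below refers to an unstated phase of the cycle. Each array held RNA pooled from 4 mice, so each region and diet had 1 array and no replicate. The labels give 4 mice per diet, so the 3 regions of a diet share their animals as far as the labels show, and p-values over regions are too small.

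Fasting changes hormone release from the pituitary, feeding peptides of the hypothalamus and glucocorticoid secretion from the adrenal. Prolactin and growth hormone are made by lactotrophs and somatotrophs of the anterior pituitary. Glucocorticoids enter the brain and induce genes through a nuclear receptor. Feeding is driven by neurons of the arcuate and lateral hypothalamus that express Npy, Agrp, Hcrt and Pmch, and is restrained by neurons that express Pomc and Cartpt.

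Levels below are on a log2 scale, on which 0 stands for the 75th percentile of that array's processed signals, and levels of different genes are not compared. On each array 59.8% to 69.6% of 43379 noncontrol spots gave a signal well above background. The region labels fitted the markers Hcrt, Neurod2 and Cyp26b1, but not every amygdala marker set that region apart. Hcrt, which encodes the orexins of the lateral hypothalamus, was at 6.92 (AD) and 6.62 (RFR) in the hypothalamus and between -3.50 and -0.88 on the other 4 arrays. Neurod2, a transcription factor of cortical excitatory neurons, was at 4.24 and 4.17 in the prefrontal cortex and at -2.79 and -2.86 in the hypothalamus. In the amygdala Neurod2 was at 3.04 and 2.72. Cyp26b1, a retinoic acid hydroxylase found in amygdala neurons, was at 3.40 and 2.87 in the amygdala against 0.13 and -0.25 in the prefrontal cortex. Prkcd, also taken as an amygdala marker, was at -0.95, -1.05 and -1.54 on the AD arrays of amygdala, hypothalamus and prefrontal cortex. Zic1, listed with the amygdala genes, was higher in the hypothalamus (3.03, AD) than in the amygdala (1.04, AD). The 3 AD arrays and the RFR prefrontal cortex array lay on slide 1, and the RFR amygdala and hypothalamus arrays on slide 2. The prefrontal cortex difference is therefore the only one within a slide, and in the other 2 regions slide and diet cannot be told apart.

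Prl and Gh, the genes of prolactin and growth hormone, were detected on the RFR arrays of all 3 regions and on no AD or CR array. Prl was at -1.43 in the amygdala, -2.04 in the hypothalamus and -1.84 in the prefrontal cortex of RFR mice. On the AD arrays the same probe was at -7.66, -7.16 and -7.38, none of them well above background. The diets did not overlap, and the Prl level differed less between the RFR regions than between the diets. Against the lowest signal that counted as well above background, Prl was at least 17.3-fold higher in the amygdala, 7.93-fold in the hypothalamus and 10.6-fold in the prefrontal cortex, where both arrays share a slide. Gh was at -3.18, -3.65 and -3.75 on the RFR arrays and at -7.81, -6.72 and -7.50 on the AD arrays. It was at least 5.17-fold, 2.61-fold and 2.81-fold higher in the same order of regions. In a limma fit of region plus diet over the 9 arrays, both passed the threshold (adjusted p under 0.05), Prl at 5.63 ± 0.26 (SE; adjusted p = 0.0018) and Gh at 3.82 ± 0.27 (SE; adjusted p = 0.015). These were the 2 genes called of 12619 tested, or 0.0158%, both higher in 3 of 3 regions, while 777 genes had an unadjusted p under 0.05. Prl and Gh entered the fit only through the 3 RFR arrays, as neither was well above background on an AD or CR array. The filter thus used the same contrast as the test, so these p-values are no independent support. With no filter the limma adjusted p was 0.014 for Prl and 0.081 for Gh. The Prl call ended with dim values raised to the detection floor (adjusted p = 0.052) and with slide as a fixed term (adjusted p = 0.061). The Prl difference was 2.16 with normexp background correction and 3.50 with the floor. Gh missed the threshold in 8 of 13 alternative fits (adjusted p 0.015 to 0.44), among them those without the amygdala (adjusted p = 0.17) and without the prefrontal cortex (adjusted p = 0.071).

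The proximal promoter of Prl is shown because it carries the sites of the pituitary factor Pit-1. The 250 bases before the annotated start (RefSeq, GRCm38.p6, chr13:27057320-27057569, plus strand) are printed 5′ to 3′. Capitals mark the Pit-1 core TATNCAT, searched on both strands and found 2 times, 148 and 47 bases before the start.
Prl promoter: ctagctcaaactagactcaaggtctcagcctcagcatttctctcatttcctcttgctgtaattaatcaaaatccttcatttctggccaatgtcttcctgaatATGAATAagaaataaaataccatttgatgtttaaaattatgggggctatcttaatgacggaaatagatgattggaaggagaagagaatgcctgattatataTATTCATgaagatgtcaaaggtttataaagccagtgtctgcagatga
Of 32851 promoter windows of this length, 7.92% held the core. The match describes the sequence and was not measured on these arrays.

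Pou1f1, the gene of Pit-1, was not well above background on any of the 9 arrays, nor were Fshb, Tbx19, Hesx1, Lhx3, Gnrhr and Ghrhr, which are hormone, lineage and receptor genes of the same gland. Of the 19 genes on the pituitary list, 3 were well above background on all 6 RFR and AD arrays, namely Pomc, Lhb and Trhr. Cga, the common subunit of the glycoprotein hormones, was detected on the AD array of the hypothalamus alone and on all 3 RFR arrays. Its level in the amygdala was -6.18 (AD), -4.10 (RFR) and -4.91 (CR), and in the prefrontal cortex -6.07, -4.81 and -5.72. In the hypothalamus Cga was nearly level, at 0.77 and 0.82. Tshb, the thyrotropin subunit, was well above background in the hypothalamus of each diet and nowhere else, and Lhb, the lutropin subunit, differed by 0.11, -0.14 and -0.29. Trhr, the receptor of thyrotropin-releasing hormone, was higher in all 3 regions by 0.10, 0.05 and 0.36.

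Pomc, the precursor of corticotropin in the pituitary and of melanocortins in the arcuate nucleus, was higher outside the hypothalamus and lower in it. In the amygdala it was at 0.29 (AD) and 1.84 (RFR), and in the prefrontal cortex at -0.18 and 0.64. In the hypothalamus it was at 4.88 and 4.07. The CR arrays, at -0.24, 3.92 and -0.44 in the order amygdala, hypothalamus, prefrontal cortex, were below the AD arrays in every region. The RFR minus AD differences of 1.55, -0.82 and 0.82 have no replicate check, and the mean over regions did not pass the limma test (adjusted p = 0.92). With bulk tissue, more cells that make a transcript and more transcript per cell cannot be told apart.

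**Figure D1:**
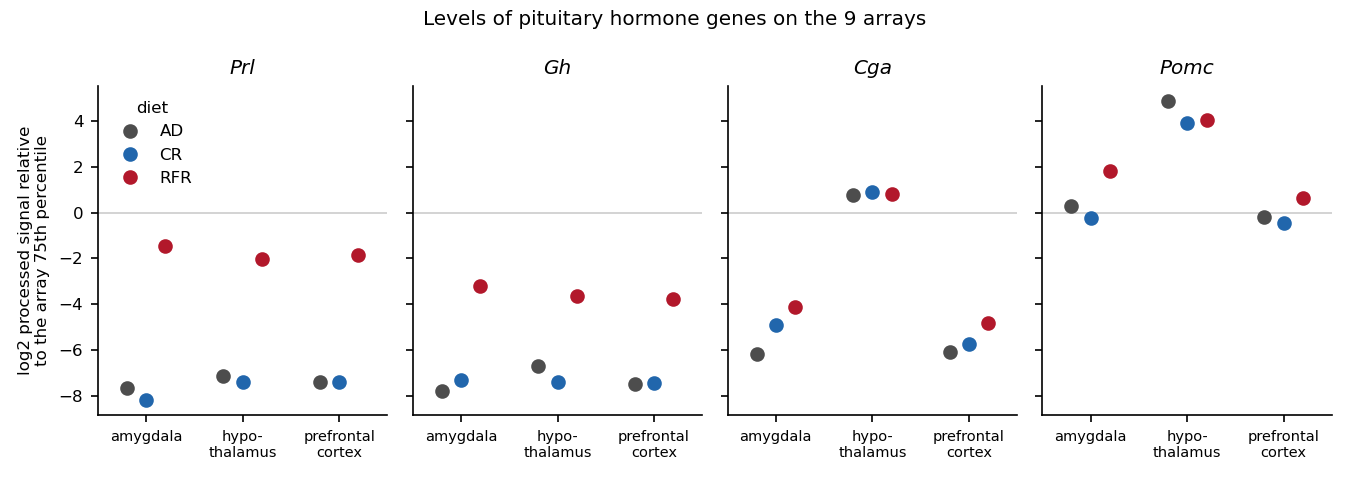
Level of 4 pituitary hormone genes on each of the 9 arrays, on a log2 scale with the array's 75th percentile at 0, by region and with 1 point per array. The RFR points of Prl and Gh lie between -3.75 and -1.43 in all 3 regions, and the AD and CR points at -6.72 or below.

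Receptors and effectors of both hormones did not move together. Of the 30 genes of the prolactin and growth hormone axis on the array, 23 were measured (well above background on all 6 arrays), of which 3 were higher and 3 lower on the RFR array in every region, and none passed the limma test. Of all 11275 genes measured, 10.8% were higher in all 3 regions and 16.7% lower. In the authors' table these shares were 17.1% and 10.5%. Prlr, the prolactin receptor, was at -2.59, -1.97 and -3.87 on the RFR arrays and at -3.28, -1.89 and -3.90 on the AD arrays. Its difference of 0.69 in the amygdala was the only one above 0.1 in size. Prlr is also a choroid plexus gene, and the 4 measured genes of that list, Prlr among them, were all higher in the amygdala (median 0.56). The part of that tissue in the Prlr value was not tested. Jak2, the kinase that both receptors use, was higher by 0.17, 0.13 and 0.33. Stat3, a transcription factor downstream of many cytokine receptors, was lower by 0.66, 0.22 and 0.32 on the log2 scale (differences -0.66, -0.22 and -0.32). Socs2, a feedback inhibitor of growth hormone signalling, differed by -0.02, -0.15 and -0.23, and Socs3 by 0.40, 0.22 and 0.04. Igf1, the growth factor induced by growth hormone in liver, differed by -0.54, -0.21 and -0.01.

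Feeding peptides showed no direction shared by the regions. Of 5 orexigenic peptide genes measured, 0 had the same sign in all 3 regions, where 10.8% of all genes were higher and 16.7% lower. Of 5 anorexigenic ones 1 had, Nmb, the gene of neuromedin B, at 0.15, 0.20 and 0.52. In the hypothalamus, where these neurons sit, Agrp differed by 0.37, Npy by 0.14, Hcrt by -0.30, Pmch by -0.13, Cartpt by -0.37 and Pomc by -0.82. In the amygdala the hypothalamic peptide genes Hcrt and Pmch were higher on the RFR array, by 1.26 and 1.82. All 10 measured genes of the hypothalamic neuron list were higher there (median 0.44), against 5083 of all 11275 genes. In the hypothalamus itself 8 of the 10 were lower (median -0.21), against 6906 of 11275. The part of the position of the slice in these differences was not tested. Ucn3, the gene of the satiety peptide urocortin 3, was higher by 0.81, 0.80 and 0.97, with the prefrontal cortex arrays not well above background. Among receptors, Cnr1, the cannabinoid receptor, was lower in all 3 regions, with differences of -0.28, -0.79 and -0.84. Mc3r and Mc4r, the melanocortin receptors, differed in sign between the regions.

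Genes that glucocorticoids induce were lower or mixed on the RFR arrays. Of 20 measured, 0 were higher and 8 lower in all 3 regions (40.0%, against 16.7% of all genes), with a median of -0.17 against -0.03 for all genes. None passed the limma test. Within slide 1, in the prefrontal cortex, 14 of the 20 were lower (median -0.16), against 5317 of all 11275 genes. Mt1 and Mt2, the metallothioneins, which bind zinc and are induced by metals as well as by glucocorticoids, were among the leading members. Mt2 was at 5.88, 6.10 and 5.41 on the AD arrays and at 5.24, 5.68 and 4.92 on the RFR arrays, lower in every region. Mt1 differed by -0.88, -0.18 and -0.35. Sgk1, a kinase that responds quickly to corticosteroids, was at 3.17, 2.95 and 3.03 on the AD arrays and at 2.48, 2.67 and 2.89 on the RFR arrays. Tsc22d3, which encodes the glucocorticoid-induced leucine zipper, differed by -0.18, -0.37 and -0.29. Pdk4 (-0.16, -0.53 and -0.18), which restrains pyruvate oxidation, and Angptl4 (-0.16, -0.30 and -0.51), an inhibitor of lipoprotein lipase, also lay below 0. So did Sult1a1 and Plin4, though only by -0.03 and -0.05 in the prefrontal cortex. Fkbp5, a chaperone of the glucocorticoid receptor and a standard target of it, went against these members in the amygdala, at 0.78, 0.13 and -0.22. The receptor gene itself, Nr3c1, differed by -0.21, -0.13 and -0.10. Hsd11b1, whose enzyme regenerates active glucocorticoid, differed by -0.65, -0.37 and -0.18. The CR arrays held Mt1 and Sgk1 above the AD arrays in the hypothalamus and the prefrontal cortex, at 5.38 and 4.70 for Mt1 and 3.32 and 3.52 for Sgk1. The count of members lower in all 3 regions was 8 or 9 under normexp background correction, quantile scaling, the authors' table and the mean of all probes, with 0 higher in each.

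The Mt1 promoter is shown because metallothionein is a classic target and the window holds a core of the glucocorticoid receptor site. The 250 bases before the start are from RefSeq (GRCm38.p6, chr8:94178839-94179088, plus strand). Capitals mark ACANNNTGT, which reads the same on both strands and starts 92 bases before the gene.
Mt1 promoter: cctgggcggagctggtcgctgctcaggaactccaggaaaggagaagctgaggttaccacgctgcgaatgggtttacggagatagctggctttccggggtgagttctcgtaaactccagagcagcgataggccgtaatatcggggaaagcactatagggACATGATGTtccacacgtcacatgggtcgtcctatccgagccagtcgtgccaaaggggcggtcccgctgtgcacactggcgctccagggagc
This core was present in 5.84% of the promoter windows, and also in 2 of the 6 Sgk1 windows. The windows of Mt2, Depp1 and Tsc22d3 did not hold it. As with Prl, the match describes the sequence and was not measured on these arrays. The other motifs searched on both strands in the windows of Prl, Mt1, Mt2, Sgk1, Depp1 and Tsc22d3 were GTAAACA (in 3.17% of all windows), TATAAA (12.4%), CACGTG (6.02%), TGACGT (6.47%), TTATGNAA (3.07%) and TGCNCNC (44.4%), the core of the metal response element. The last was found in the windows of Mt1, Mt2, Sgk1, Depp1 and Tsc22d3.

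Of 19 clock genes measured, 5 were higher in all 3 regions (26.3%, against 10.8% of all genes) and 3 lower (15.8%, against 16.7%), with a median of 0.10 and none past the limma test. The 5 higher ones were the repressors Per2, Ciart and Nr1d1 and the output factors Dbp and Tef. Per2, a core repressor, was at -0.80, -0.88 and -0.78 on the AD arrays and at -0.56, -0.35 and -0.27 on the RFR arrays. A second Per2 probe disagreed, with differences of 0.88, -0.17 and -0.41. Dbp, a transcription factor driven by the clock, differed by 0.06, 0.21 and 0.45, and Ciart, a repressor of CLOCK and BMAL1, by 0.22, 0.20 and 0.34. The 3 lower genes were Rora (-0.16, -0.20 and -0.34), Nfil3 (-0.59, -0.21 and -0.08) and Csnk1e (-0.50, -0.31 and -0.45). For Csnk1e, a kinase of the PER proteins, a dimmer second probe was higher in every region, and the mean of all probes gave 0.10 in place of -0.42. All mice were killed at the same hour.

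**Figure D2:**
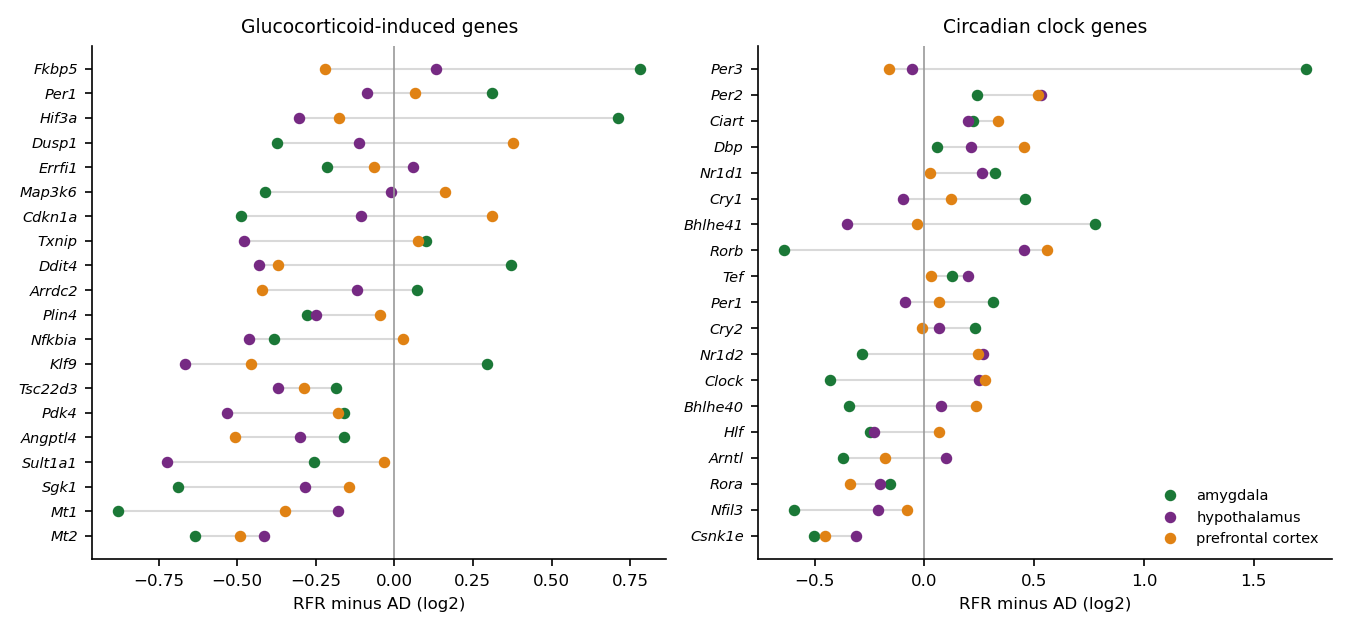
RFR minus AD difference (log2) of each measured gene of the glucocorticoid list (20 genes) and the clock list (19 genes), with 1 point per region. Of the glucocorticoid-induced genes 8 have all 3 points below 0 and none has all 3 above it.

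Globin transcripts were lower on the RFR arrays of perfused brain. Hbb-bt, an adult beta-globin gene, was at 2.76, 2.39 and 3.82 on the AD arrays and at 1.75, 0.73 and 3.31 on the RFR arrays, and all 4 of its probes were lower in all 3 regions. Hba-a1, an alpha-globin gene, was at 2.07, 1.23 and 2.50 on the AD arrays and at 0.76, -0.20 and 2.32 on the RFR arrays. Alas2, the first enzyme of haem synthesis in red cells, was lower by 0.44, 1.86 and 0.37 on the log2 scale (differences -0.44, -1.86 and -0.37) and missed detection on 1 array. Both globins were lowest on the RFR hypothalamus array, and the differences within slide 1, in the prefrontal cortex, were small, at -0.51 and -0.18. On the CR arrays Hbb-bt was above AD in each region, by 0.16, 0.27 and 0.36. Of 4 blood genes measured, 3 were lower in all 3 regions, against 16.7% of all genes, with a median of -0.58. How much blood stayed in the tissue after perfusion was not measured.

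The glial marker lists had medians below that of all genes (-0.03). Of 14 oligodendrocyte genes measured, 6 were lower and 1 higher in all 3 regions (median -0.20), and of 13 astrocyte genes 6 were lower and 0 higher (median -0.17), against 16.7% lower and 10.8% higher among all genes. In the prefrontal cortex, within slide 1, 11 of 14 and 10 of 13 were lower, against 5317 of all 11275 genes. Aspa, which degrades N-acetylaspartate in myelinating cells, differed by -0.45, -0.36 and -0.21, and Gjb1, the connexin of myelin, by -0.33, -0.50 and -0.25. Cnp, another oligodendrocyte gene, differed by 0.01, -0.52 and -0.43. Slc1a2, the main glutamate transporter of astrocytes, differed by -0.23, -0.25 and -0.37, and S100b by -0.39, -0.46 and -0.10. The astrocyte genes with the largest mean differences, Slc4a4 and Aqp4, were higher in the hypothalamus. Slc4a4 differed by -1.09, 0.36 and -1.03 and Aqp4 by -0.75, 0.08 and -0.56, though the other Aqp4 probes were lower in all 3 regions. The other Slc1a2 probe disagreed, with differences of 0.37, 0.26 and -0.58. Mbp, myelin basic protein, differed by -0.05, -0.40 and -0.25. The other Mbp probes differed by 0.67, -0.57 and -0.57 and by -0.19, -0.04 and 0.51. In the authors' table, whose scaling constants differ from those used here, 3 oligodendrocyte and 3 astrocyte genes were lower in all 3 regions. The part of cell composition in the other gene lists was not tested.

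Metabolic lists are read against all genes, of which 16.7% were lower and 10.8% higher in all 3 regions here, and 10.5% and 17.1% in the authors' table. Among 24 measured genes that make sterols and fatty acids, 8 were lower and 0 higher in all 3 regions (median -0.13), with 4 lower under quantile scaling and in the authors' table. Stard4, a sterol carrier, differed by -0.64, -0.30 and -0.41, though another of its probes was at 0.07 in the prefrontal cortex. Sqle, squalene epoxidase, was at 3.02, 3.04 and 2.61 on the AD arrays and at 2.76, 2.79 and 2.32 on the RFR arrays, and Mvd, of the mevalonate pathway, differed by -0.06, -0.54 and -0.60. Of 21 glycolysis genes 7 were lower and 1 higher, the latter being Hk2, a hexokinase, at 0.28, 0.17 and 0.11. Ldhb and Pgam1 had differences of -0.23, -0.34 and -0.14 and of -0.35, -0.25 and -0.14. Of 17 genes of fatty acid oxidation and ketone use 5 were lower and 1 higher. Oxct1, which lets the brain use ketone bodies, was at 5.72, 5.17 and 5.76 on the AD arrays and at 5.33, 4.88 and 5.49 on the RFR arrays. Another Oxct1 probe differed by 0.10, -0.32 and -0.43. Autophagy genes (6 of 19 lower, 1 higher) included Ctsd, a lysosomal protease, at -0.28, -0.28 and -0.18. The other Ctsd probe differed by 0.16, -0.08 and -0.45. Respiratory chain genes (4 of 24 lower, 0 higher) stood at the 16.7% of all genes. No member of these lists passed the limma test.

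**Figure D3:**
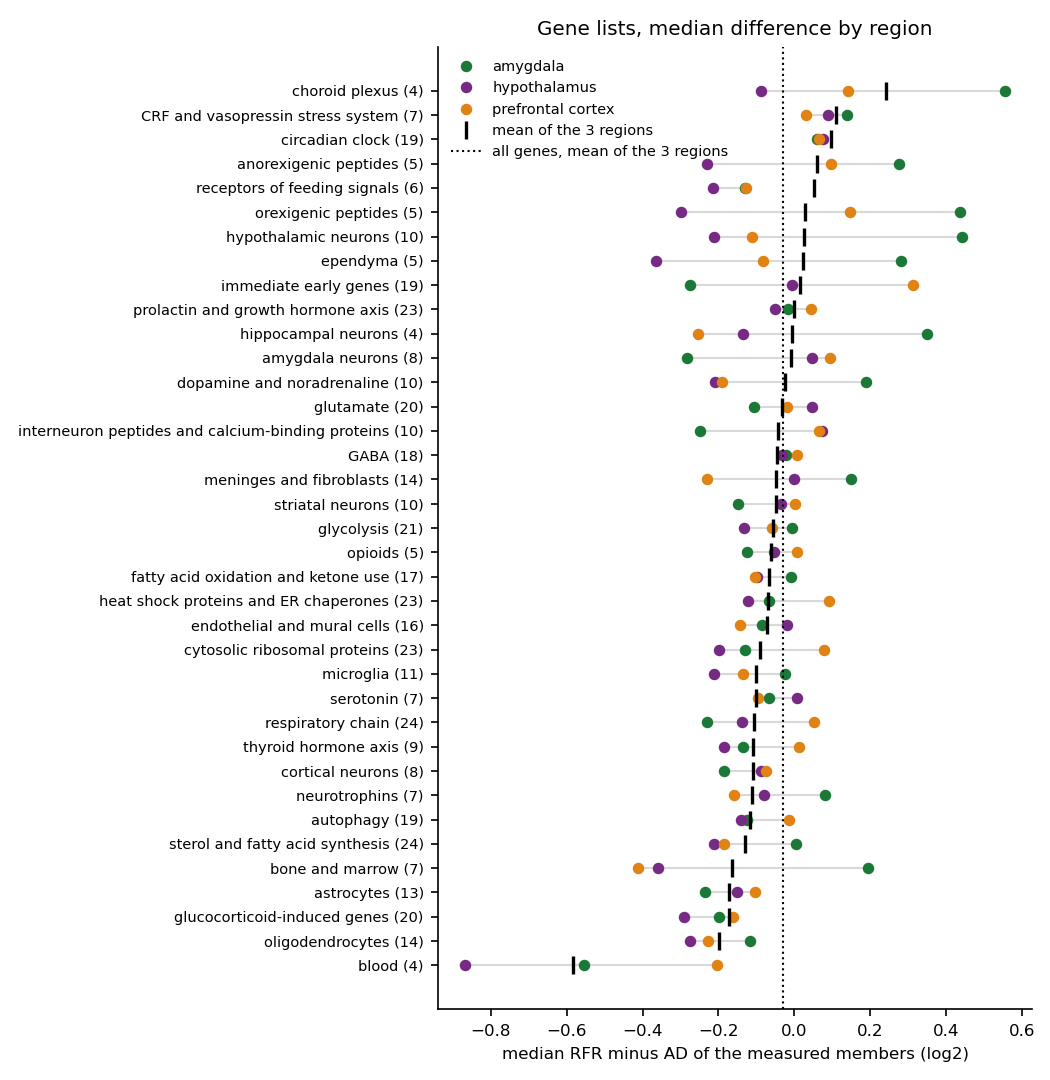
Median RFR minus AD difference (log2) of the measured members of each gene list with at least 4 of them, by region (points) and for the mean over regions (bars), with the number of members in brackets. The glucocorticoid, oligodendrocyte, astrocyte and blood lists lie below 0 in all 3 regions. So do the microglia, endothelial and mural, cortical neuron, autophagy, glycolysis, fatty acid oxidation and feeding receptor lists. The hypothalamic neuron, choroid plexus and ependyma lists are highest in the amygdala, as are several others, among them orexigenic peptides and hippocampal neurons.

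Immediate early genes, which neurons switch on with activity, differed by region. Of 19 measured, 15 were higher in the prefrontal cortex (median 0.31), 9 in the hypothalamus (median -0.01) and 4 in the amygdala (median -0.27). Among all 11275 genes, 5958, 4369 and 5083 were higher in the same order of regions. Egr1 differed by -0.67, 0.25 and 0.53 and Fos by -0.34, 0.08 and 0.37 in the order amygdala, hypothalamus, prefrontal cortex. Npas4, Fosb and Egr4 were the 3 higher in every region (15.8%, against 10.8% of all genes). Arc and Btg2 were the 2 lower (10.5%, against 16.7%). Npas4, an activity-induced transcription factor of neurons, was at -2.02, -2.75 and -0.43 on the AD arrays and at -0.75, -2.04 and 0.17 on the RFR arrays, and its CR arrays were above AD too. Its mean difference was 0.86 (adjusted p = 0.55).

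Corticotropin-releasing factor is the peptide that starts the stress response. Crhr1, its main receptor, was at 1.85, 0.20 and 2.59 on the AD arrays and at 2.16, 0.42 and 3.07 on the RFR arrays. Crhr2 differed by 0.45, 0.12 and 0.03 and Crhbp, the binding protein, by 0.14, 0.09 and 0.11. These were the 3 of 7 measured genes of the stress list that were higher in every region, with Nr3c1 and Hsd11b1 the 2 lower and none past the limma test. All genes stood at 10.8% higher and 16.7% lower, and Crhr2 lost its shared sign under normexp.

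The remaining lists had no gene past the limma test, and their counts stand beside 16.7% lower and 10.8% higher in all 3 regions among all genes. Microglia genes were lower in all 3 regions for 3 of 11 and endothelial and mural genes for 5 of 16, with 0 and 1 higher. Of 23 ribosomal protein genes 3 were lower and 1 higher, and of 23 chaperone genes 3 and 2. Transmitter lists gave 0 of either sign among 7 serotonin genes, 1 lower of 10 dopamine and noradrenaline genes, 1 of each sign among 18 GABA genes and 5 lower and 3 higher of 20 glutamate genes. Opioid genes (1 of 5) and interneuron genes (1 of 10) were lower in 1 case each, 0 of 7 neurotrophin genes had a shared sign, and 9 thyroid axis genes held 1 of each sign. Of the markers of neighbouring tissue, 2 of 14 meningeal genes were lower and 4 higher, 1 of 7 bone and marrow genes went each way, 2 of 10 striatal genes were lower, 0 of 4 hippocampal genes had a shared sign, 4 of 8 cortical genes were lower, and 1 of 8 amygdala genes was lower and 2 higher.

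Beyond these lists, genes were ranked by the smallest of their 3 differences. Of 11275 genes, 20 were at least 0.5 log2 units higher in all 3 regions (0.177%) and 9 at least 0.5 lower (0.0798%), so 69.0% of them were higher (83.3% from the authors' table and 50% with normexp). Just inside and outside the first 10 were Npas4 at 0.60 and Col19a1 at 0.59, and on the lower side Atp2b2 at -0.49 and Tenm4 at -0.48. Being ranked on these differences, the genes below are described and not tested again.

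Epha10, a receptor for ephrins that lacks kinase activity, was the most even of the higher genes. It was at -1.80, -2.77 and -2.26 on the AD arrays and at -0.96, -1.89 and -1.39 on the RFR arrays. The differences were 0.84, 0.88 and 0.87, and the adjusted p was 0.10. Insl5, an insulin-like peptide known from the colon, was at -0.41, -0.39 and -1.53 on the AD arrays and at 0.35, 0.31 and -0.84 on the RFR arrays, while its CR arrays were below AD in each region. Xlr4b, of an X-linked family expressed in lymphocytes and brain, differed by 0.90, 0.89 and 1.52, and its 2 other probes, dim on some or all arrays, were also higher in all 3 regions. Xlr3c, of the same family, differed by 0.54, 0.75 and 1.04. Col11a1 and Col7a1, fibrillar and anchoring collagens, differed by 0.77, 0.75 and 0.64 and by 0.61, 0.87 and 0.77. A second Col11a1 probe, not well above background on any of the 6 arrays, differed by 1.23, -0.10 and 0.23. Bub1b, of the spindle checkpoint, differed by 1.36, 0.85 and 0.68. The rest of the 10 were Msantd2, Ssh3 (a cofilin phosphatase) and Tmc4 (a channel-like protein), with differences from 0.62 to 1.12.

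Shroom3, an actin-binding protein that shapes epithelia, had the largest shared difference on the lower side. It was at -2.11, -1.71 and -3.52 on the AD arrays and at -4.57, -4.16 and -4.55 on the RFR arrays. Among the 11275 genes well above background on all 6 arrays, which leaves out Prl and Gh, it was the only one at least 2-fold lower in all 3 regions, and 0 were at least 2-fold higher. Its CR arrays were as low, at -5.01, -4.83 and -4.59. Chil3, a chitinase-like protein of myeloid cells, differed by -1.60, -0.95 and -2.22 and was likewise low on the CR arrays. Depp1, a gene induced by FoxO factors and by fasting in other tissues, was at -2.76, -2.92 and -1.83 on the AD arrays and at -3.65, -3.96 and -2.97 on the RFR arrays. Its adjusted p was 0.27, and the CR arrays, at -2.52, -3.17 and -2.10, stayed near AD. Ppargc1a, a coactivator of mitochondrial genes, was at 2.35, 1.80 and 2.62 on the AD arrays and at 1.79, 1.18 and 1.83 on the RFR arrays. Atp2b2, a plasma membrane calcium pump of neurons, differed by -0.78, -0.49 and -1.13. Gucy1a1, a subunit of the nitric oxide receptor, differed by -0.56, -0.63 and -1.24, with 1 other probe at -0.74, 0.28 and 0.18. The rest were Cdk5r2 (an activator of Cdk5), Cpne4 (a calcium-dependent membrane-binding protein), Olfr933 (an olfactory receptor) and Hbb-bt.

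**Figure D4:**
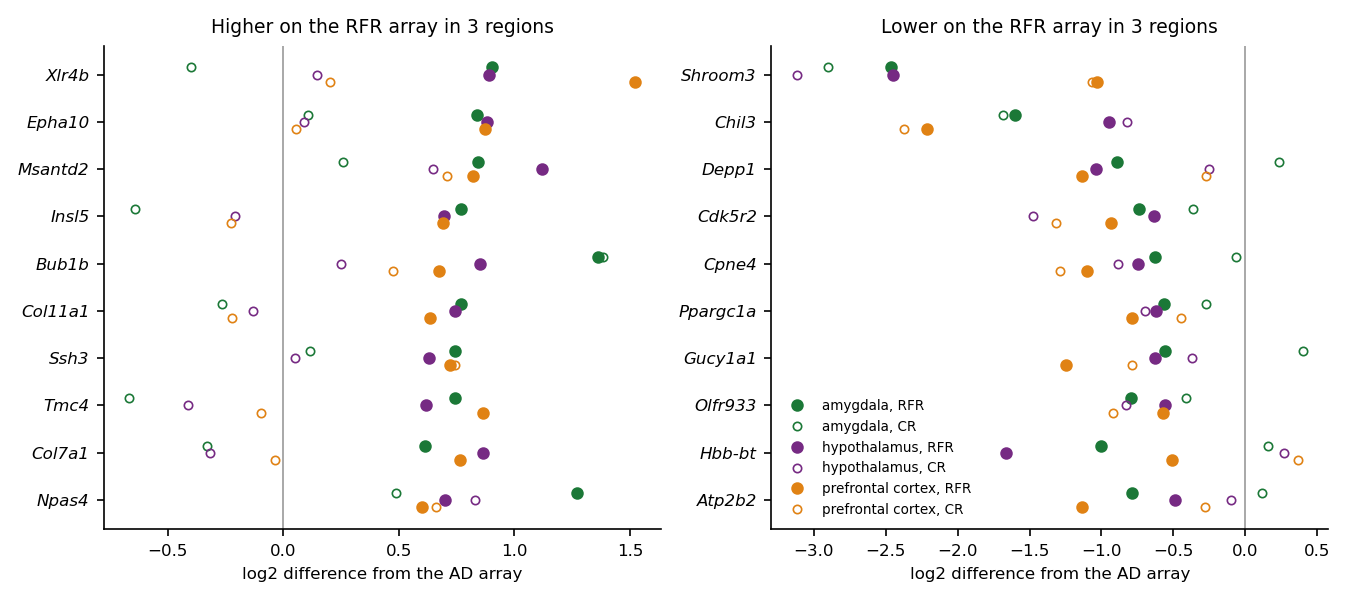
Log2 difference from the AD array of the same region for the 10 genes ranked first in each direction, with filled points for RFR and open points for CR, coloured by region. All filled points lie on 1 side of 0 in each panel by the choice of genes, whereas open points of Xlr4b, Depp1, Gucy1a1 and Atp2b2 fall on both sides. RFR and CR differences share the AD arrays.

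Detection in a single diet was rare. Besides Prl and Gh, Jchain, the joining chain of immunoglobulins, was detected on each RFR array and no AD array, at least 1.27-fold higher in the means. Klhl38 and Cldn23 were detected on all 3 AD arrays and no RFR array. In the means Klhl38 was at least 1.29-fold and Cldn23 1.45-fold higher on the AD arrays. For Jchain in the prefrontal cortex the bound was under 1. In the amygdala the Cldn23 signal was the higher on the RFR array, at -4.77 against -4.94 (AD). Klhl38 and Cldn23 were detected on 2 or more CR arrays, and Jchain on 0.

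The regions did not share one profile. Across the 11275 genes, which are not independent replicates, the differences in the hypothalamus and the prefrontal cortex had Pearson's r of 0.45 (Spearman's rho 0.51) and the same sign for 66.7% of genes. The amygdala had r of -0.06 with the hypothalamus (same sign 47.9%) and -0.14 with the prefrontal cortex (same sign 40.4%). No pair of regional comparisons shares an array, though the regions of a diet share their mice as far as the labels show. The SD of the differences was 0.35 in the amygdala, 0.26 in the hypothalamus and 0.27 in the prefrontal cortex. The median difference moved with brightness, from 0.08 in the dimmest 2255 genes to -0.12 in the brightest 2255 in the amygdala, from -0.05 to -0.12 in the hypothalamus, and from -0.04 to 0.04 in the prefrontal cortex. The part of brightness in the region pattern, and in the metabolic, glial and other gene lists above, was not tested. Within a region, 177 of 12074 genes (1.47%) differed at least 2-fold in the amygdala, 81 of 11730 (0.691%) in the hypothalamus and 115 of 11843 (0.971%) in the prefrontal cortex. Those counts take genes well above background on both arrays of the region. Among the 11275 well above background on all 6 arrays, which again leaves out Prl and Gh, 239 were past 2-fold in 1 region, 21 in 2 regions and 2 in all 3, which were Shroom3 and, with opposite signs, Slc4a7.

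**Figure D5:**
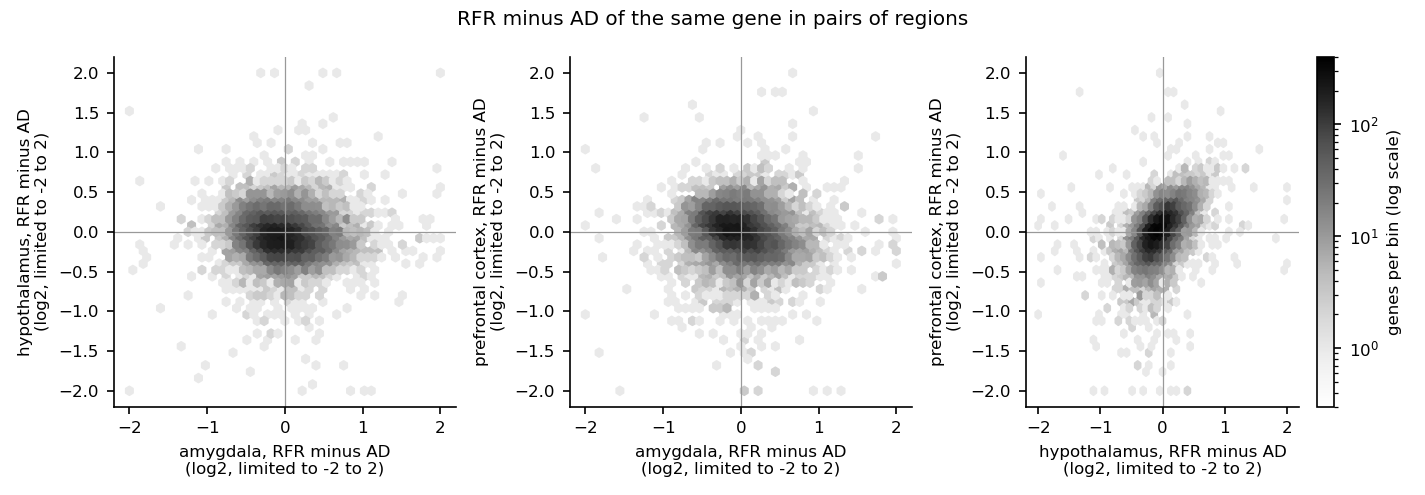
RFR minus AD difference (log2) of the same gene in each pair of regions, as density of 11275 genes, with values limited to the range -2 to 2. The cloud leans along the diagonal for hypothalamus and prefrontal cortex, and not for the pairs with the amygdala.

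Choroid plexus genes had their highest median difference in the amygdala. All 4 measured were higher there (median 0.56) and in the prefrontal cortex (median 0.14), and 1 of 4 in the hypothalamus (median -0.09). Folr1, a folate receptor of that epithelium, was at -3.36 (AD), -1.89 (RFR) and -3.62 (CR). Of members not measured on all arrays, Ttr, the carrier of thyroxine and a marker of that tissue, differed by 1.81 in the amygdala and Kcne2 by 1.94. The 5 ependymal genes measured were higher in the amygdala as well (median 0.28), beside the 10 hypothalamic neuron genes given above. There, 7 of 8 cortical neuron genes were lower (median -0.18). Among all 11275 genes, 5083 were higher and 6192 lower in the amygdala. In the prefrontal cortex 5958 were higher, and in the hypothalamus 4369.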

How the data were processed

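RNA of 9 pools of 4 mice was measured on 1-colour (Cy3) Agilent whole mouse genome arrays, with 400 ng labelled. Per the file headers, Agilent Feature Extraction 9.5.1.1 (protocol GE1-v5_95_Feb07) made the deposited processed signal, an intensity that is background-subtracted and detrended within an array. The deposited flags (other than a measurement) mark spots well above background, saturated or outlying. The authors' table holds a ratio to the AD array of the region, which was tested against the scanner files: about 99.2% of values lay within 0.01 log2 of the ratio times 1 constant per array.

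Here the log2 of each processed signal was set against its array's 75th percentile. Outlier spots were dropped, spots of a probe averaged, and the brightest probe of a gene kept. Accessions were matched to RefSeq symbols (GRCm38.p6): of 41174 probes, 22951 matched and 18223 did not, giving 16358 genes. limma 3.58.1 in R 4.3.3 fitted region plus diet over 9 arrays (4 residual degrees of freedom) for genes well above background on at least 3 arrays, with Benjamini-Hochberg adjustment at 0.05. Within a region there is no test. Measured genes were well above background on the 6 RFR and AD arrays. For a fold bound, each dim array's value was raised to at least the lowest signal well above background. Spots of probes printed 10 times had a median SD of 0.063 to 0.099 (log2), and the number of arrays limits the precision. Named are called genes, the 10 with the largest smallest difference in each direction, genes detected in 1 diet, 6 with opposite differences and up to 4 leading members of each of 38 lists, plus members of the pituitary, feeding, glucocorticoid and clock lists. Genes of other lists named beyond these were picked with their values in view. The members and lists were chosen with earlier results of these data known. The fit was tested on simulated data. Alternatives changed background correction (normexp, offset 50), scaling, source, filter, probe choice, variance model and slide, and left out each region in turn.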

Additional observations from a re-analysis of the deposited data

Results flagged for a closer look

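Genes whose RFR minus AD difference had opposite signs in different regions are given here. With 1 array per region and diet the difference between regions was not tested for any of them. The largest gap between regions was that of Slc4a7, a sodium bicarbonate cotransporter, at 4.43 log2 units (-2.87 in the amygdala, 1.56 in the hypothalamus and 1.09 in the prefrontal cortex). Acvr1b, an activin receptor, had a gap of 3.69 and differences of 0.82, -2.87 and -0.30. The gaps were 3.46 for Adgrg3, 3.32 for Rab5b, 3.19 for Cenph and 3.18 for Dkk2, a Wnt antagonist. In each of these 6 genes the highest of the 6 levels was on an AD array, as for Rab5b, at -1.33 in the AD hypothalamus and between -4.35 and -3.36 on the other 5 arrays. In all, 68 genes differed by at least 1.5-fold both ways.

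Among list members, Fgfr1, a fibroblast growth factor receptor, had a gap of 3.17, but its 3 other probes differed by -0.19 to -0.06 in the prefrontal cortex where the chosen probe gave -2.26. Calb2, calretinin, had a gap of 1.83, again from a prefrontal cortex value that its other 2 probes did not share (-0.29 and 0.24). Pomc had a gap of 2.37 and Htr3a, a serotonin receptor channel, 1.41 (-0.75, 0.66 and -0.64).

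Probes without a gene symbol lie outside the comparisons above. Of 6916 such probes well above background on the 6 arrays, 11 were at least 2-fold higher in all 3 regions and 0 at least 2-fold lower.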

How the results depend on the processing

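The limma count of RFR against AD was 2. It was 1 with the 6 RFR and AD arrays alone, with normexp and with no filter (Prl in each), and 1 with every probe tested, an alternative chosen after seeing the data. It was 4 from the authors' table (Prl, Epha10, Klhl30 and Shroom3), and 13 with slide as a fixed term, without Prl and Gh. It was 0 with dim values raised to the floor (747 genes at an unadjusted p under 0.05) and 0 for genes well above background on all arrays (707), a filter that removes Prl and Gh. Leaving out a region or the amygdala CR array gave 1 to 2. The adjusted p of Prl ranged from 3.6e-05 to 0.061 over the alternatives.

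The percentages of genes higher and lower in all 3 regions were 9.93 and 17.7 with normexp, 13.2 and 15.2 with quantile scaling, and 17.1 and 10.5 from the authors' table. Genes at least 2-fold lower in all 3 regions numbered 0 with normexp, 2 with quantile scaling and 0 from the authors' table. At 0.5 log2 units, 7 genes were higher with normexp and 4 lower from the authors' table. The share of higher genes among those past 0.5 in all 3 regions was 69.0%, against 50% with normexp and 83.3% from the authors' table. Genes past 2-fold within a region numbered 75, 33 and 36 with normexp, in the order amygdala, hypothalamus, prefrontal cortex, and 75 from the authors' table in the prefrontal cortex. The mean of Csnk1e turned to 0.10 with the mean of all probes. The cause of these shifts was not tested. Of the other named gene means, 137 of 140 moved by less than their SD over regions in the authors' table, and 156 of 168 with normexp and 160 of 168 with quantile scaling. This SD is wide for genes whose regions differ in sign. Ranked genes were among those that moved with normexp. The means fell from 0.87 to 0.63 for Epha10, 0.93 to 0.40 for Msantd2 and 0.96 to 0.37 for Bub1b. Ssh3, Tmc4, Depp1 (-1.02 to -0.70) and Jchain (0.74 to 0.14) moved too. All of these kept their sign in every region. The limma fits pair the arrays by region, and the labels give no replicate numbers for a further block. Signals near background limit what can be said of Prl and Gh on the AD and CR arrays to a bound.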

Other observations

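Collagen genes were looked at after Col11a1, Col7a1 and Col19a1 were seen among the shared higher genes, so their count is a description and no support for a direction. Of 38 collagen genes on the array, 29 were measured, of which 15 were higher and 1 lower on the RFR array in all 3 regions (51.7% higher, median 0.22), against 10.8% higher and 16.7% lower among all genes. Col16a1, a fibril-associated collagen, differed by 0.54, 0.59 and 0.68 in the order amygdala, hypothalamus, prefrontal cortex. Basement membrane collagens Col4a1 and Col4a2 differed by 0.11, 0.39 and 0.11 and by 0.67, 0.49 and 0.30. Col5a1 and Col6a1 differed by 0.49, 0.21 and 0.58 and by 0.29, 0.58 and 0.49. Col1a1 and Col1a2, the bulk collagens of fibroblasts and bone, went another way in the prefrontal cortex, at -1.41 and -0.74, and Dcn, the proteoglycan decorin of the same cells, differed by -0.35, -0.30 and -0.44. On the CR arrays Col11a1, Col16a1 and Col7a1 were below AD in all 3 regions. The count of collagens higher in all 3 regions was 11 with normexp and 12 from the authors' table.

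Of the probes without a symbol, 22.5% were higher and 13.1% lower in all 3 regions, against 10.8% and 16.7% of named genes. In the authors' table the named genes stood at 17.1% and 10.5%, so the contrast depends on scaling. Every probe without a symbol was counted, but only the brightest probe of each named gene. The part of brightness in this contrast was not tested. The probe A_52_P459077 differed by 1.34, 2.09 and 1.58, and A_52_P1069484 by 1.25, 1.54 and 1.39. On the lower side A_51_P256401 differed by -0.84, -1.96 and -1.07.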
